A study of Mus musculus with 6 samples.

Results

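Genes of the p53 pathway were followed in mouse embryonic stem cells before and after removal of Dicer, the ribonuclease that cuts microRNA precursors into mature microRNAs. The set holds 36 genes: p53 itself (Trp53), its partners and inhibitors, and genes that p53 is known to switch on. It was named from general knowledge of the pathway, but with earlier results of these data known. The shares called below therefore describe a set that was not chosen blind to the data. For each gene the probe set that the platform annotation assigns to that gene alone was taken, and of several the brightest over the 6 arrays. This gave values for 33 of the 36 genes, out of 19938 genes in all. Trp53, Cdkn1a and Bax had no probe set of their own in the annotation used and were not analysed here as genes.

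All 6 arrays came from Dicer Fx/Fx embryonic stem cells, in which both Dicer alleles carry recombination sites. The untreated group had 3 arrays of cells without deletion. The tamoxifen group had 3 arrays of cells kept with tamoxifen for 3 days and collected 2 days later, on day 5; no collection day is given for the untreated cells. The labels name neither the recombinase nor the number of clones. Nothing in them states that replicates came from separate cultures, and the spread behind each p-value may therefore be technical. Tamoxifen-treated wild-type cells were not analysed here, so that the actions of tamoxifen and of Dicer loss cannot be told apart.

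p53 is a transcription factor that is held at low activity by the Mdm2 and Mdm4 proteins and is released by DNA damage and other stress. It then switches on genes that stop the cell cycle, promote death, repair DNA and adjust metabolism, and also Mdm2, which closes a feedback loop. In mouse embryonic stem cells p53 protein is known to be abundant, and its activation by damage favours differentiation or death. p53 binds as a tetramer to DNA that holds a pair of 10-base elements, each with a C and a G around an A- and T-rich centre.

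The stretches of promoter below are shown because they belong to genes of the set that differed between the groups. Each shows the bases most like the p53 element in their surroundings, whether or not p53 binds there. They come from RefSeq (GRCm38.p6), run 5′ to 3′ in the direction of the gene, and hold 100 bases each. They lie 235 to 136 bases before the transcription start in Ccng1, 250 to 151 in Gadd45a and 100 to 1 in Gadd45g. Capitals mark the 20 bases most like the p53 consensus in the window from 250 bases before the start to 50 after it. RefSeq windows were found for 26 of the 33 measured genes, Perp not among them.
Ccng1 (chr11:40755422-40755521, minus strand): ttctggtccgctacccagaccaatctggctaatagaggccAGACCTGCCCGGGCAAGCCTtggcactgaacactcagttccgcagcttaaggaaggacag
Gadd45a (chr6:67037558-67037657, minus strand): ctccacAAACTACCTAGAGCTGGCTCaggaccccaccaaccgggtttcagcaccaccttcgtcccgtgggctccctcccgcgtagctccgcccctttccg
Gadd45g (chr13:51846575-51846674, plus strand): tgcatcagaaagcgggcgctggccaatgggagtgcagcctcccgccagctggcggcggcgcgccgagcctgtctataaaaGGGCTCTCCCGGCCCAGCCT
The Ccng1 stretch departed from the consensus at 1 of 20 bases, that of Gadd45a at 3 and that of Gadd45g at 4. Of 32851 promoter windows of all genes, 0.0883% departed at 1 base or fewer, 6.29% at 3 or fewer and 30.2% at 4 or fewer. The 10-base p53 consensus element reads the same on both strands. A complete one lay in 11 of the 33 windows of these 26 genes (33.3%) and in 8.36% of all windows. Some genes had more than 1 window, and those of Aen and of Gtse1 overlap, so the windows are not separate genes. Both windows of Aen are among the 11. A pair of CATG cores with 6 bases between them lay in 0 of the 33 windows and in 0.712% of all windows. The core CATG alone, which is its own reverse complement, lay in 33.3% and 61.1%. The windows of the set were also richer in G and C, with a median of 62.3% against 52.7%. Besides Ccng1, a window with 1 departure was that of Gtse1, a microtubule-binding protein that restrains p53. The genes were chosen as known p53 targets, and a match of letters is no evidence of binding.

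The arrays behaved alike across genes, with correlations of 0.996 to 0.998 within groups and 0.993 to 0.996 between them. Dicer1, the targeted gene, stood at 11.43, 11.36 and 11.48 in untreated replicates 1 to 3 and 9.53, 9.48 and 9.69 in tamoxifen replicates 1 to 3 (log2 intensity), a change of -1.85 ± 0.07 on the log2 scale (limma standard error, adjusted p = 3.61e-05). Every tamoxifen array lay below every untreated array. The 9 stem cell markers averaged 12.68 to 12.74 untreated and 12.59 to 12.68 after tamoxifen. Tamoxifen replicate 1 (12.6814) and untreated replicate 3 (12.6815) had nearly the same mean, and the other tamoxifen arrays lay lower. Of the 9 markers 4 were lower and 2 higher without overlap between the groups (66.7%, beside 29.3% of all genes). The 2 higher were Tfcp2l1 (0.20) and Nanog (0.07). By limma 0 of the 9 were called (beside 7.78% of all genes). With replicate number as a block, a fit described with the pathway genes, 2 were called lower (beside 17.4% called of all genes). These were Fgf4 (-0.32, adjusted p = 0.00835) and Tdgf1 (-0.24, adjusted p = 0.0326). Markers of fibroblasts, which serve as feeder cells, averaged 6.59 to 6.73 untreated and 6.68 to 6.76 after tamoxifen, and those of endoderm 7.04 to 7.27 and 7.06 to 7.17. The block called 2 of the 9 fibroblast markers, Acta2 higher and Thy1 lower, and 0 of the 6 endoderm markers (beside 17.4% of all genes). The 4 mesoderm markers averaged 6.50 to 6.51 untreated and 6.57 to 6.68 after tamoxifen. Of them 1 was called in both fits (Kdr, higher), beside 7.78% of all genes by limma and 17.4% with the block. The 5 neural markers averaged 7.65 to 7.78 untreated and 7.77 to 8.003 after tamoxifen. By limma 0 of them were called, and 2 were called higher with the block (beside 7.78% and 17.4% called of all genes). These were Tubb3, with a change of 0.52 (adjusted p = 0.00204 with the block, 0.130 without) and higher in 3 of 3 pairs, and Sox1, with 0.29 (0.0211 with the block, 0.0835 without), also higher in 3 of 3 pairs. The change of Tubb3 was about as large as that of any p53 pathway gene. All single markers named here were picked after their values were seen. These 4 lists lie near or below the median signal of all genes (7.81), RMA values carry no detection call or true 0, and the part of such cells in the results was not tested. In a bulk sample, fewer cells of a type and less RNA per cell cannot be told apart.

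Few genes of the p53 pathway differed after tamoxifen, and they did so in both directions. Of the 33 measured, 3 rose (Ccng1, Perp and Gadd45g), 1 fell (Gadd45a) and 29 did not pass in limma, where a call needs a p under 0.05 after Benjamini-Hochberg adjustment over all genes. That is 12.1% of the set beside 7.78% of all 19938 genes, where 3.79% rose and 3.99% fell. The set was brighter than the array, with a median signal of 9.94 against 7.81 over all genes. Without the dimmest 40% of genes, 4 of 32 were called beside 14.4% of all genes kept. The share in the set then did not exceed that of the array. The changes were small, none of the 33 being larger than 0.52 on the log2 scale. The median change was 0.09, beside 0.01 over all genes, and 22 of the 33 changes were above 0 (66.7%, beside 53.2% of all genes). Before adjustment, 11 of the 33 genes had a limma p under 0.05 (33.3%, beside 24.5% of all genes).

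The replicate numbers of the arrays were taken to pair the samples. No label states a pairing, and it was inferred from these same values. A fit with the number as a block called 9 of the 33 genes (27.3%, beside 17.4% of all genes). Of these, 6 were higher and 3 lower, while 7.87% of all genes were higher and 9.54% lower. They were the 4 genes above together with Btg2, Sesn3 and Ephx1, which were higher, and Sesn1 and Gadd45b, which were lower. The pairs gave different values: the median change of the set was -0.08 in replicate pair 1, 0.07 in pair 2 and 0.22 in pair 3, while the median of all genes was -0.01, 0.01 and 0.01. In pair 1 only 12 of the 33 genes were higher after tamoxifen, against 20 in pair 2 and 23 in pair 3. Arrays of the 2 groups did not overlap for 8 of the 33 genes (24.2%), with 6 higher and 2 lower. Over all genes 29.3% did not overlap, with 14.5% higher and 14.8% lower, so the share in the set was below that of the array.

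Calls were lost when some arrays were left out, over all genes too, while the changes of the 4 called genes kept their direction. With untreated replicate 2 left out, untreated replicate 3 left out, tamoxifen replicate 2 left out or tamoxifen replicate 3 left out, 0 of the 33 genes were called in each fit, while 2.59%, 4.55%, 1.78% and 2.70% of all genes were. With untreated replicate 1 left out 4 genes were called (3 higher and 1 lower, beside 6.08% of all genes). There Ephx1 was called (limma adjusted p = 0.0241) in place of Gadd45g (0.0672). With tamoxifen replicate 1 left out 4 were called, all higher (beside 7.92%). There Btg2 was called (limma adjusted p = 0.0144) in place of Gadd45a (0.0740). In the 6 fits the change ran from 0.30 to 0.36 for Ccng1, 0.33 to 0.47 for Perp, 0.28 to 0.44 for Gadd45g and -0.60 to -0.37 for Gadd45a. With all 35556 probe sets in the fit 0 were called, beside 0.945% of the probe sets.

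**Figure D1:**
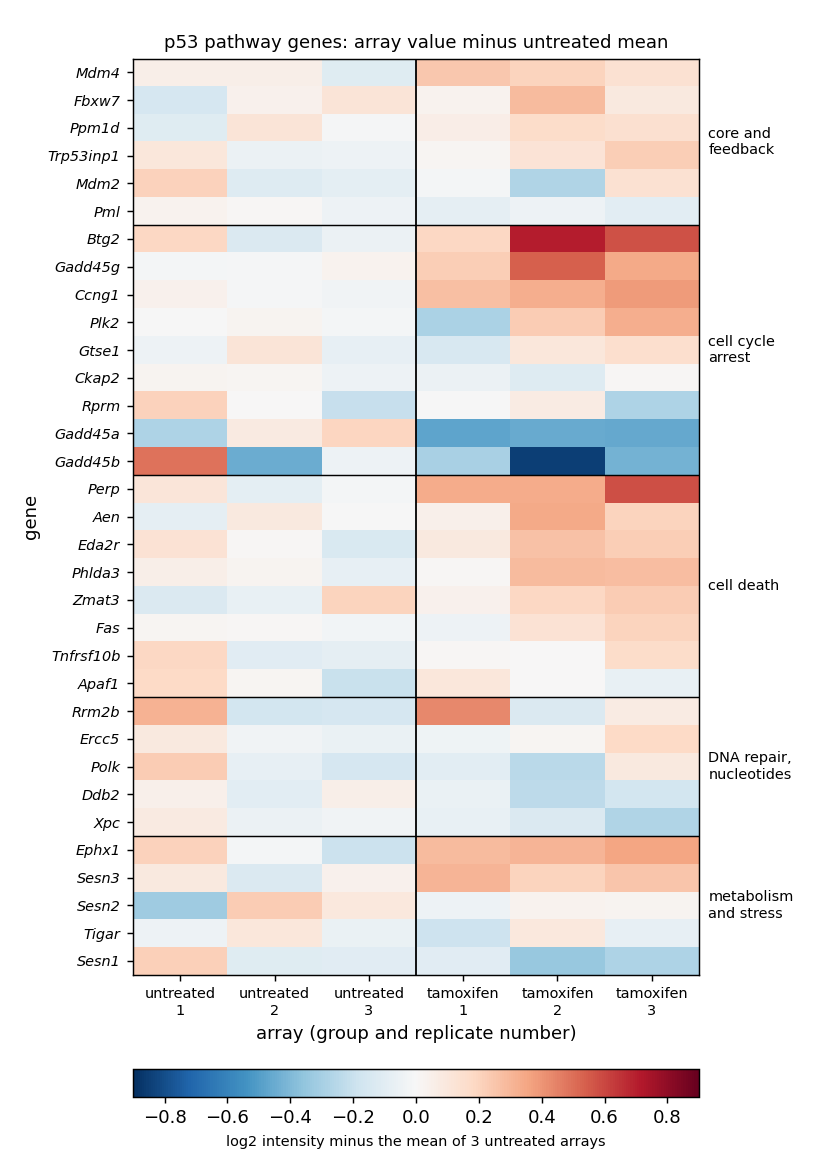
Log2 intensity of each of the 33 measured p53 pathway genes (rows, grouped by role) in each of the 6 arrays (columns), with the mean of the 3 untreated arrays subtracted; red is higher and blue lower. Ccng1, Perp and Gadd45g are red in all 3 tamoxifen arrays and Gadd45a is blue in all 3, while most other rows are pale or mixed.

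Genes that act on p53 itself showed no called change. Mdm2, the ubiquitin ligase that marks p53 for degradation and is itself a p53 target, stood at 11.28, 10.95 and 10.98 in untreated replicates 1 to 3 and 11.05, 10.80 and 11.21 in tamoxifen replicates 1 to 3. The groups overlapped, and the change of -0.05 ± 0.12 (95% interval -0.33 to 0.23, limma adjusted p = 0.842) had no settled sign, being 0.055 without untreated replicate 1 and 0.062 without tamoxifen replicate 2. Mdm4, the relative of Mdm2 that masks the activation domain of p53, stood at 11.72, 11.72 and 11.56 in untreated replicates 1 to 3 and 11.91, 11.87 and 11.80 in tamoxifen replicates 1 to 3. Every tamoxifen array lay above every untreated array, by little: the change was 0.19 ± 0.07, with an adjusted p of 0.129, or 0.0531 with the replicate block. Ppm1d, the phosphatase Wip1 that switches off damage signalling, had a change of 0.12 ± 0.07 (adjusted p = 0.354). Trp53inp1, which aids phosphorylation of p53, stood at 12.23, 12.07 and 12.08 untreated and 12.14, 12.25 and 12.35 after tamoxifen, with a change of 0.12 ± 0.08. Tamoxifen replicate 1 lay inside the untreated range. Pml, the scaffold of nuclear bodies in which p53 is modified, had a change of -0.07 ± 0.06. That of Fbxw7, a substrate receptor for the degradation of cyclin E and Myc, was 0.13 ± 0.09, and -0.04 in its other, dimmer probe set. In all, 0 of the 6 measured genes of this role were called by limma (beside 7.78% of all genes). An unadjusted limma p under 0.05 was found for 1 of the 6 (16.7%, beside 24.5% of all genes).

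The genes of cell cycle arrest held 3 of the 4 calls, and not in 1 direction. Of 9 measured, 2 rose, 1 fell and 6 were not called (33.3% called, beside 7.78% of all genes). With the replicate block 3 were higher and 2 lower (55.6%, beside 17.4%). Ccng1 (probe set 10385271) encodes cyclin G1, a direct p53 target that binds a protein phosphatase and through it acts on Mdm2. It stood at 12.82, 12.77 and 12.75 in untreated replicates 1 to 3 and 13.05, 13.11 and 13.17 in tamoxifen replicates 1 to 3. All tamoxifen arrays lay above all untreated arrays, and the signal ranked at percentile 99.3 of all genes. The group means were 12.78 ± 0.04 untreated and 13.11 ± 0.06 after tamoxifen (log2, SD, n = 3), a rise of 0.33 ± 0.06 or 1.25-fold. The adjusted p in limma was 0.0173, and 0.01 with the replicate block. It was called in 2 of the 6 fits that left out 1 array, with a largest adjusted p of 0.0740.

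The 3 Gadd45 genes encode small stress-induced proteins that bind cell cycle kinases and the replication clamp and activate a kinase upstream of p38. They differed in direction. Gadd45g (probe set 10405211) stood at 7.64, 7.65 and 7.69 in untreated replicates 1 to 3 and 7.88, 8.20 and 8.01 in tamoxifen replicates 1 to 3. The untreated arrays were nearly equal and all lay below the tamoxifen arrays, which were spread more widely. The rise was 0.37 ± 0.08, 1.29-fold (limma, adjusted p = 0.0333). Gadd45a (probe set 10545130), long known as a p53 target in the damage response, stood at 9.84, 10.20 and 10.31 in untreated replicates 1 to 3 and 9.64, 9.66 and 9.66 in tamoxifen replicates 1 to 3. Here the tamoxifen arrays were nearly equal and lay below all untreated arrays, of which replicate 1 was the lowest. The fall was 0.46 ± 0.11 on the log2 scale after tamoxifen, 1.38-fold (limma, adjusted p = 0.0408). Gadd45g and Gadd45a were each called in 1 of the 6 fits without 1 array, and Gadd45a missed the threshold after cyclic loess (adjusted p = 0.0520) and after renewed quantile normalisation (0.0505).

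Gadd45b stood at 10.47, 9.54 and 9.93 in untreated replicates 1 to 3 and 9.69, 9.13 and 9.55 in tamoxifen replicates 1 to 3. The groups overlapped, and in both of them replicate 1 was the highest array and replicate 2 the lowest. The change was -0.52 ± 0.22 with an adjusted p of 0.192, and 0.0055 with the replicate block; it was -0.78, -0.41 and -0.38 in pairs 1 to 3. Btg2, an antiproliferative protein that binds the CCR4-NOT deadenylase, stood at 9.84, 9.52 and 9.60 in untreated replicates 1 to 3 and 9.84, 10.36 and 10.23 in tamoxifen replicates 1 to 3. Tamoxifen replicate 1 equalled untreated replicate 1, and the other tamoxifen arrays lay above every untreated array. The change of 0.49 ± 0.14 had an adjusted p of 0.0632, 0.0435 with the block, and 0.0144 without tamoxifen replicate 1.

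The rest of this role lay close to 0. Plk2, a Polo-like kinase of centriole duplication, had a change of 0.09 ± 0.14, with tamoxifen replicate 1 the lowest of the 6 arrays and tamoxifen replicates 2 and 3 the highest. Gtse1 had a change of 0.04 ± 0.09, Ckap2, a spindle protein, of -0.05 ± 0.06, and Rprm, which holds cells before mitosis, of -0.07 ± 0.12. Their adjusted p-values in limma ran from 0.652 to 0.852. Gtse1 and Ccng1 had the promoter windows closest to the consensus, and their 95% intervals of change were -0.17 to 0.24 and 0.19 to 0.47.

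**Figure D2:**
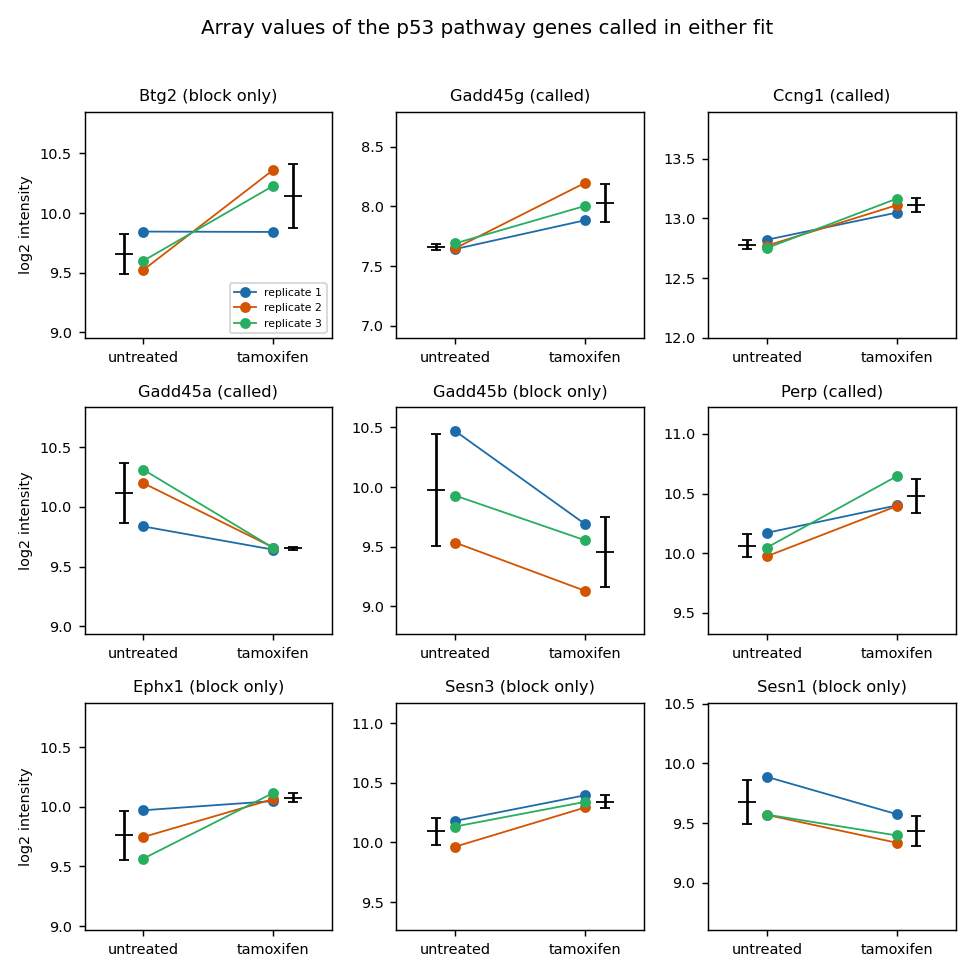
Log2 intensity of the 9 p53 pathway genes called in either fit, in untreated and tamoxifen arrays; lines join arrays of the same replicate number, and black bars give the group mean and SD (n = 3). All panels span the same height. Gadd45b falls in each replicate from a different level, most in replicate 1. Btg2 is level in replicate 1 and rises in the others.

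Genes of cell death lay above 0 throughout, by small amounts. Of 8 measured, 1 rose and 7 were not called in either fit (12.5% called, beside 7.78% of all genes and 17.4% with the block), and the median change was 0.17. All 8 changes were above 0, though in replicate pair 1 only 3 of the 8 were, against 7 in pair 2 and 8 in pair 3. Perp (probe set 10361887) encodes a membrane protein of desmosomes that also takes part in p53-dependent death. It stood at 10.17, 9.97 and 10.05 in untreated replicates 1 to 3 and 10.40, 10.39 and 10.65 in tamoxifen replicates 1 to 3. Every tamoxifen array exceeded every untreated array, most of all in replicate 3. The rise was 0.42 ± 0.09, 1.33-fold (limma, adjusted p = 0.0263, or 0.00906 with the block). It was called in 2 of the 6 fits without 1 array, and its largest adjusted p was 0.0964.

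In the other death genes tamoxifen replicate 1 lay within the range of the untreated arrays, except in Fas, where it was the lowest of all. Eda2r, a receptor of the TNF receptor family for ectodysplasin A2, stood at 10.36, 10.24 and 10.09 untreated and 10.32, 10.49 and 10.45 after tamoxifen. Its change was 0.19 ± 0.08 (adjusted p = 0.204). Phlda3, which keeps the kinase Akt from the membrane, stood at 10.67, 10.64 and 10.55 untreated and 10.63, 10.90 and 10.90 after tamoxifen. Its change was 0.19 ± 0.09 (adjusted p = 0.217). In both genes tamoxifen replicates 2 and 3 were the highest of the 6 arrays. Aen, a nuclease of apoptosis, stood at 8.56, 8.73 and 8.64 untreated and 8.69, 8.98 and 8.85 after tamoxifen. Its change of 0.20 ± 0.09 had an adjusted p of 0.205, or 0.0547 with the block. The change was 0.15 ± 0.10 for the RNA-binding protein Zmat3 and 0.06 ± 0.09 for the TRAIL receptor Tnfrsf10b. Apaf1, the scaffold on which caspases are activated, had a change of 0.01 ± 0.10 (95% interval -0.21 to 0.24). The death receptor Fas was the dimmest gene of the set, at 5.30, 5.30 and 5.26 untreated and 5.24, 5.42 and 5.49 after tamoxifen, with a change of 0.10 ± 0.07.

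DNA repair genes were not called. Of 5 measured, 0 passed in limma with or without the block, beside 7.78% of all genes without it and 17.4% with it. An unadjusted limma p under 0.05 was found for 0 of the 5, beside 24.5% of all genes. Xpc and Ddb2, which recognise damage for nucleotide excision repair, had near-equal changes. For Xpc it was -0.15 ± 0.07 (adjusted p = 0.248), and for Ddb2 -0.15 ± 0.07 (adjusted p = 0.239). Xpc stood at 9.36, 9.23 and 9.24 untreated and 9.21, 9.15 and 9.01 after tamoxifen. Its groups did not overlap, but untreated replicate 2 and tamoxifen replicate 1 were nearly equal. The change of Ercc5, the endonuclease of the same pathway, was 0.05 ± 0.08, and that of the lesion-bypass polymerase Polk -0.08 ± 0.12. Rrm2b, the p53-induced subunit of ribonucleotide reductase, stood at 8.66, 8.18 and 8.20 untreated and 8.78, 8.22 and 8.42 after tamoxifen. Replicate 1 was the highest array of each group, and the change was 0.13 ± 0.16.

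The genes of metabolism and stress gave calls with the replicate block and none in the plain comparison. Of 5 measured, 0 were called without it (beside 7.78% of all genes), while 2 were higher and 1 lower with it (3 of 5, beside 17.4%). The sestrins restrain the growth kinase mTORC1 when amino acids are scarce or p53 is active. Sesn3 stood at 10.18, 9.96 and 10.13 in untreated replicates 1 to 3 and 10.40, 10.29 and 10.34 in tamoxifen replicates 1 to 3. Every tamoxifen array lay above every untreated array, and the change was 0.25 ± 0.07 (adjusted p = 0.0749, 0.0235 with the block). Sesn1 stood at 9.89, 9.57 and 9.57 in untreated replicates 1 to 3 and 9.57, 9.33 and 9.40 in tamoxifen replicates 1 to 3. Its differences in pairs 1 to 3 were -0.31, -0.23 and -0.17, and tamoxifen replicate 1 matched untreated replicates 2 and 3. The change of -0.24 ± 0.10 had an adjusted p of 0.189, or 0.0271 with the block. Sesn2 stood at 11.05, 11.60 and 11.46 untreated and 11.32, 11.41 and 11.40 after tamoxifen, where untreated replicates 1 and 2 were the lowest and the highest arrays. Its change was 0.005 ± 0.12 on the log2 scale.

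Ephx1, the microsomal epoxide hydrolase that detoxifies foreign compounds, stood at 9.97, 9.75 and 9.57 in untreated replicates 1 to 3 and 10.05, 10.06 and 10.12 in tamoxifen replicates 1 to 3. The tamoxifen arrays were close together and above all untreated arrays, which were spread more widely. The change was 0.32 ± 0.10, 1.24-fold, with an adjusted p of 0.0863, 0.0422 with the block, and 0.0241 without untreated replicate 1. Tigar, a phosphatase that lowers glycolytic flux, had a change of -0.05 ± 0.09 (adjusted p = 0.742).

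**Figure D3:**
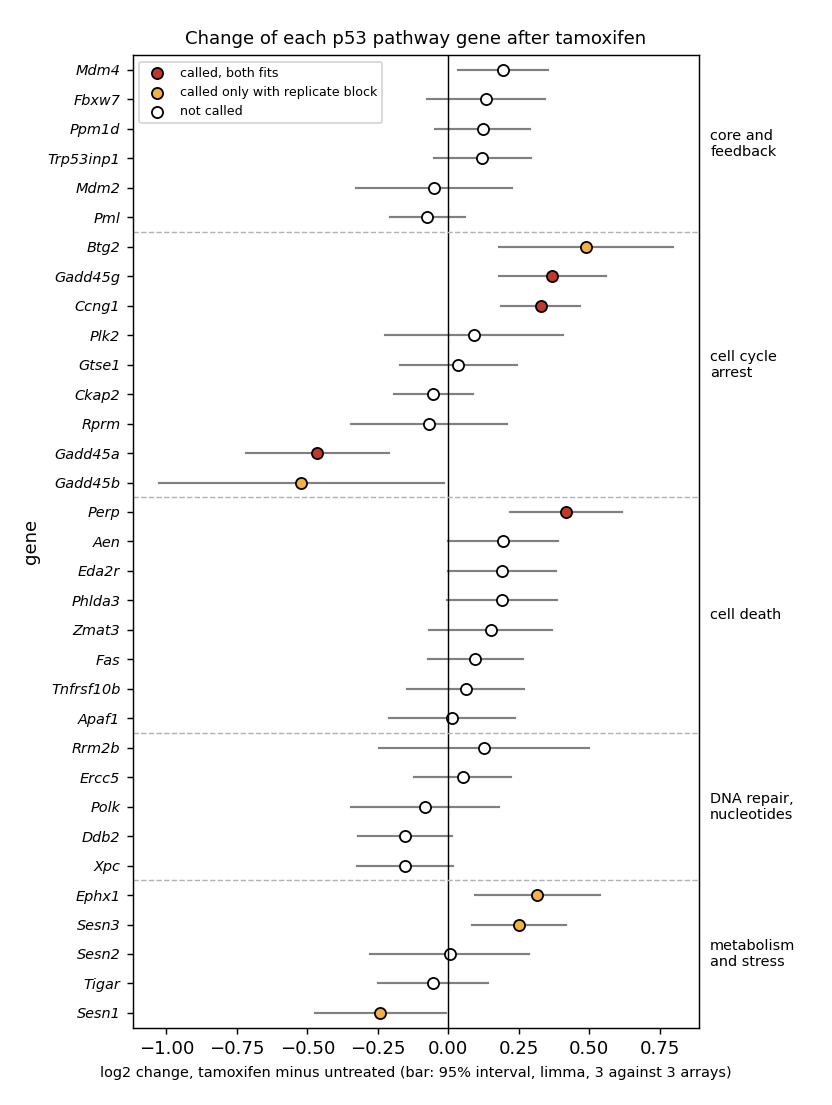
Log2 change, tamoxifen minus untreated, of each of the 33 measured p53 pathway genes, with its 95% interval from limma (3 against 3 arrays). Filled red points are the 4 genes called in both fits, orange points the 5 called only with the replicate block, and open points were not called.

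A further list held 37 microRNA and protein-coding genes known as p53 targets but outside the set, of which 32 were measured. Here 3 rose, 4 fell and 25 were not called (21.9% called, beside 7.78% of all genes), with a median change of 0.02. Without the dimmest 40% of genes, 7 of 27 were called beside 14.4% of all genes kept. The block called 9 of the 32, with 4 higher and 5 lower (28.1%, beside 17.4%). It added Ndrg1, a stress-induced gene, with a change of -0.74 ± 0.23 (adjusted p = 0.00213 with the block, 0.0819 without), and Notch1, a receptor of cell fate signalling, with 0.29 ± 0.08 (0.0305 and 0.0661). Both were named after their values were seen. The largest was a fall: Ddit4, an inhibitor of mTORC1 induced by several stresses, stood at 11.45, 11.01 and 10.92 untreated and 10.39, 10.10 and 10.13 after tamoxifen. Every tamoxifen array lay below every untreated array, and the change was -0.92 ± 0.14 (limma adjusted p = 0.00889). Triap1, which protects cells from p53-dependent death, had a log2 change of -0.47 ± 0.08 (adjusted p = 0.0135). For the pro-apoptotic protein Bid it was -0.43 ± 0.07 (adjusted p = 0.0112). The fourth to fall was Sfn, known as stratifin, at -0.42 ± 0.10 (adjusted p = 0.0444), named after its value was seen and called in 0 of the 6 fits without 1 array. Sfn has 2 probe sets, and it was no longer called when the mean of probe sets was taken per gene. Ei24, a membrane protein of the endoplasmic reticulum, rose by 0.48 ± 0.07 (adjusted p = 0.00677), the thiamine transporter Slc19a2 by 0.39 ± 0.09 (adjusted p = 0.0343) and Lif, the cytokine that sustains stem cells, by 0.34 ± 0.08 (adjusted p = 0.0323). Ei24 and Ddit4 were called whichever array was left out, but Slc19a2 in 2 and Lif in 1 of those 6 fits. Bbc3 and Pmaip1, chosen with their values in view, encode the p53 death effectors PUMA and NOXA. Their log2 changes were -0.03 ± 0.06 and -0.02 ± 0.10, neither called.

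The miR-34 genes of that list, also picked after their values were seen, encode microRNAs that p53 induces and that Dicer must cut. Their mature forms are shown because they share a seed, the bases 2 to 8 by which a microRNA finds its targets, given in capitals (RefSeq, GRCm38.p6).
mmu-miR-34a-5p (chr4:150068473-150068494, plus strand): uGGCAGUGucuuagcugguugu
mmu-miR-34b-5p (chr9:51103610-51103632, minus strand): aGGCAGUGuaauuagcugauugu
Whether these probe sets read the precursor, the mature form or both is not given in the sources used here. Mir34a stood at 5.79, 5.47 and 5.74 untreated and 5.88, 5.96 and 5.81 after tamoxifen, a dim signal. The tamoxifen arrays lay just above the untreated arrays, and the change of 0.22 ± 0.09 was not called (limma adjusted p = 0.185). The change was 0.16 ± 0.07 for Mir34b (adjusted p = 0.165) and -0.03 ± 0.06 for Mir34c.

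Genes that act on p53 or beside it formed the last list, with 29 of 30 measured. Of these, 0 were called by limma (beside 7.78% of all genes), and 5 had an unadjusted p under 0.05 (17.2%, beside 24.5%). The block called 5, of which 3 were higher and 2 lower, a share of 17.2% that is near the 17.4% of all genes. Trp53bp1, a damage-response protein that binds p53, stood at 9.83, 9.88 and 9.95 untreated and 10.07, 10.33 and 10.14 after tamoxifen. Its arrays did not overlap, and the change was 0.29 ± 0.08 (adjusted p = 0.0574, 0.0221 with the block). Prkdc, the kinase of DNA end joining, stood at 9.58, 9.83 and 9.89 untreated and 9.50, 9.46 and 9.30 after tamoxifen. It was lower in every tamoxifen array, with a change of -0.34 ± 0.09 (adjusted p = 0.0593, 0.0349 with the block). The block also called Hipk2, Crebbp and Aurka, named here after their values were seen. Hipk2 had the largest change of the list, 0.41 ± 0.13 (limma adjusted p = 0.0902, 0.0151 with the block). The change of Crebbp was 0.24 ± 0.10 (0.190 and 0.0279) and that of Aurka -0.24 ± 0.07 (0.0749 and 0.0253). The damage kinases Atm, Atr, Chek1 and Chek2 were likewise chosen with values in view. Their tamoxifen means differed from the untreated means by 0.09, -0.09, -0.04 and 0.04 on the log2 scale.

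**Figure D4:**
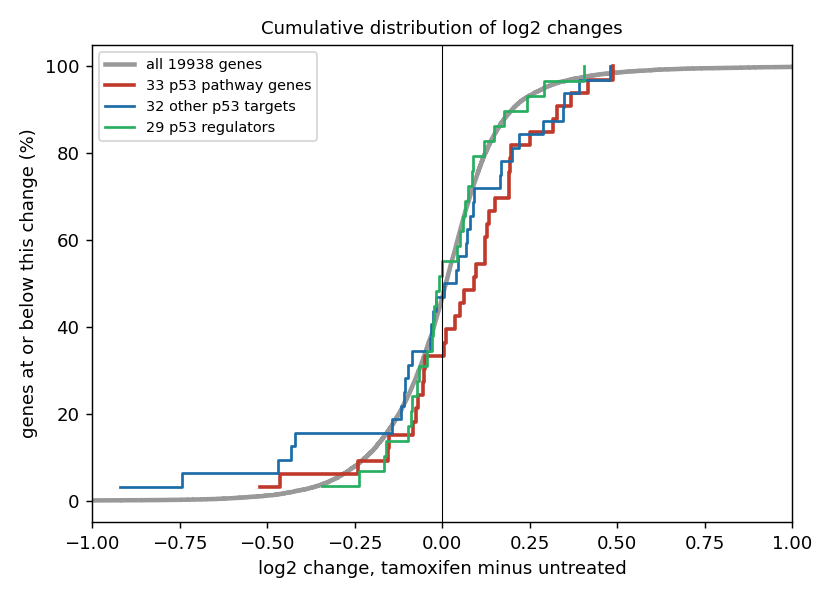
Cumulative share of genes (%, vertical) at or below a given log2 change, tamoxifen minus untreated (horizontal, shown from -1 to 1), for all 19938 genes, the 33 p53 pathway genes, 32 other p53 targets and 29 p53 regulators. The curve of the p53 pathway genes lies mostly to the right of that of all genes, with medians of 0.09 and 0.01.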

How the data were processed

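The study measured RNA of 3 untreated and 3 tamoxifen-treated samples of Dicer Fx/Fx embryonic stem cells on 6 Affymetrix arrays. The authors deposited log2 intensities; the submitters' processing notes name RMA and Affymetrix Expression Console 1.2. RMA subtracts background, quantile-normalises arrays and summarises probes, which removes a shift shared by most transcripts. Values ran from 3.18 to 14.6, with array medians of 7.19 to 7.26. The build of the array annotation is not given in the sources used here. Columns of other samples numbered 0.

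Among 35556 probe sets, 21789 had 1 gene symbol; those with several (1621) or no listed gene (12146) were left out. The brightest probe set per gene gave 19938 genes. Groups were compared by lmFit and eBayes of limma 3.58.1 (R 4.3.3), two-sided, without a filter on dim genes, and p-values were adjusted over all genes; a gene is called at an adjusted p under 0.05. Changes are given ± limma's SE and means ± SD. The number of arrays limits the precision.

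The members and lists were chosen with earlier results of these data known. Genes described in full were all called members, Mdm2, and those with the smallest p up to 12; from other lists up to 3 called genes per direction by size, or the 2 with the smallest p. Any other gene is named within its role or said to be picked later. Same-numbered arrays deviated together from their group means across genes (correlations of 0.356, 0.345 and 0.389), so the numbers were taken to pair the samples. Promoter windows were compared with the published p53 consensus, a choice made after the data were seen; the CATG pair was planned. Alternatives covered the replicate block, probe set choice, filter, scaling, variance model, threshold and leaving out each array. The code was tested on simulated arrays.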

Additional observations from a re-analysis of the deposited data

How the results depend on the processing

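The small number of arrays limits these results. The count of 4 called p53 pathway genes became 9 with the replicate block, 7 with array weights, 0 with all probe sets in the fit and 0 at an adjusted p under 0.01; without 1 array it ran from 0 to 4. It was 3 or 4 in the other alternatives, among them cyclic loess, where Sesn3 was called in place of Gadd45a. The 7 other p53 targets became 1 with all probe sets and 2 at the stricter threshold, and 2 to 7 without 1 array. The 0 p53 regulators became 5 with the replicate block, 3 with array weights, 2 without the dimmest 40% of genes, and 1 each after cyclic loess, renewed quantile normalisation and the trended robust prior; without 1 array they ran from 0 to 1. The median change of the set stayed above 0, at 0.04 to 0.13 without 1 array. Mdm2 changed sign without untreated replicate 1 (0.055) and without tamoxifen replicate 2 (0.062), and ran from -0.14 to 0.062 without 1 array. Of 357 single-gene values under alternatives, 285 kept direction and side of the threshold, 49 lost the call, 21 gained it and 2, both of Mdm2, changed sign. Over all genes the 1552 calls became 3472 with the replicate block, 2511 with array weights, 336 with all probe sets, 276 at the stricter threshold and 355 to 1580 without 1 array. The median change of all genes ran from -0.03 to 0.01 over all settings. Fitting every probe set that has a listed gene was an alternative added after seeing the data, and it called the same number of pathway genes, 4. The replicate block ended no call of a pathway gene or other target. With all probe sets the adjusted p of Ccng1 was 0.0597, with the change itself as before. The causes were not tested, except that the stricter threshold acts by construction.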

Other observations

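Cdkn1a, the p53 target that encodes the cell cycle inhibitor p21, shares its only probe set in the annotation with 4930567H12Rik, so the signal cannot be assigned to either gene and stayed out of the comparison. The shared probe set stood at 11.99, 11.62 and 11.67 in untreated replicates 1 to 3 and at 12.14, 11.98 and 12.06 in tamoxifen replicates 1 to 3 (log2 intensity). The groups overlapped, since untreated replicate 1 exceeded tamoxifen replicate 2. Its change was 0.30 ± 0.10 (log2) when limma was fitted to the 23410 probe sets that have a listed gene. The adjusted p of that fit was 0.115, or 0.0235 with the replicate block.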
